A study of Mus musculus with 3 samples.

Results

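The 39 genes of the HoxA, HoxB, HoxC and HoxD clusters, found as every listed symbol made of Hox, a cluster letter and a paralog number, were followed through 31040 genes of a single-nucleus RNA sequencing (snRNA-seq) table of the adult mouse lumbar spinal cord. The table held 14662 nuclei of 12 mice aged 90 days, 3 of each sex and genotype. SOD1G93A mice were of the strain B6.Cg-Tg(SOD1*G93A)1Gur/J, which carries a high-copy transgene of a mutant human SOD1 that gives a disease like amyotrophic lateral sclerosis, and WT mice were C57BL/6J littermates without it. Nuclei of 1 mouse of each sex and genotype were tagged with antibodies carrying barcodes and run together, which gave 3 pools of 4 mice, and 15 nuclear barcodes occurred in 2 pools. Cell types and neuron sub-types were those the authors gave each nucleus. Values are unique molecular identifiers (UMIs, counted molecules) summed per mouse over the nuclei of a type and given per 1000000 UMIs of those nuclei, written CPM (counts per 1000000).

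Hox genes encode homeodomain transcription factors that stand in 4 chromosomal clusters in the mouse. Genes of the same paralog number in different clusters descend from a common ancestor, and low numbers are used from the hindbrain backwards while high numbers are used towards the tail, so the set of active Hox genes records position along the body axis. In the developing spinal cord they also divide motor neurons into columns and pools, and the paralogs numbered 10 and 11 are known for lumbar patterning. Hox proteins bind DNA together with the TALE homeodomain cofactors of the Pbx, Meis and Pknox families.

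A mouse gave 548 to 2259 nuclei and 6411715 to 36668441 UMIs, and all mice together gave 206486779, of which 98479 were Hox UMIs. The row named Sod1 stood in neurons at 28.6 (lowest), 34.2 (median) and 84.9 (highest) CPM in the 6 WT mice and at 63.4, 90.8 and 230 in the 6 SOD1G93A mice. Those ranges overlapped across pools, but within each pool both SOD1G93A mice were above both WT mice (for pool A, 134 and 230 against 64.0 and 84.9). Intervals and detection limits below cover counting error alone.

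Of the 39 Hox genes, 30 had at least 1 UMI and 9 had none. Hoxa3, Hoxa4, Hoxa5, Hoxa6, Hoxc6, Hoxc8, Hoxc9 and Hoxd4 were at 0 in every nucleus, and in the GENCODE vM21 annotation of GRCm38 each of these 8 lies wholly inside another listed gene on the same strand. Hoxa3 to Hoxa6 lie inside Gm28308 (chr6:52163359-52213339), Hoxc6, Hoxc8 and Hoxc9 inside the 49.987 kb gene model of Hoxc5 (chr15:102967443-103017429), and Hoxd4 inside Hoxd3 (chr2:74711927-74748442). A read in such a stretch can belong to either gene, so these zeros are no measure of absence, and the values of Hoxc5 and Hoxd3 may hold reads of the genes inside them. The annotation release of the authors' reference was not given in the sources used here, and the part of this overlap in the zeros was not tested. Hoxb13, which has no such neighbour, was the remaining gene at 0, and 0 of 206486779 UMIs allows a level of up to 0.0145 CPM. In the annotation 13 members overlap a listed antisense gene, among them Hoxb3, Hoxb5, Hoxb6, Hoxa7 and Hoxd8, and whether strand was used in counting was not stated.

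Neurons gave 77290 of the Hox UMIs. The summed Hox level in neurons was 534 ± 24.2 CPM (SD, n = 12 mice), with a range of 502 to 577. The 15 genes called well counted below had at least 10 UMIs in neurons of every mouse. They were Hoxa7, Hoxa9, Hoxa10, Hoxb2 to Hoxb9, Hoxc4, Hoxc5, Hoxd3 and Hoxd8, and the other 15 fell below this in at least 1 mouse. Hoxc4 and Hoxc5 gave the most UMIs, at 124 ± 19.1 and 106 ± 12.5 CPM (SD, n = 12 each), followed by Hoxb3 at 58.2 ± 6.24 and Hoxb6 at 42.1 ± 4.46. Over the mice, Hoxc4 ran from 97.7 to 159 CPM, Hoxc5 from 88.2 to 124 and Hoxb3 from 48.6 to 65.2, which are yields of UMIs not scaled by gene length.

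Long genes collect more nuclear reads, so levels were compared between genes only per kilobase of gene span and only for the 27 members with at least 90% of their span free of other genes on the strand. On that scale Hoxb4 (chr11:96318267-96321638) led the neurons at 10.0 ± 1.58 CPM per kb, followed by Hoxb5 at 8.46 ± 0.86, Hoxc4 (chr15:103018934-103036852) at 6.93 ± 1.07 and Hoxb8 (chr11:96281905-96285315) at 6.12 ± 1.32 (SD, n = 12 each). The spreads of neighbours in this order overlapped, so the order of Hoxc4 and Hoxb8 is not resolved. The level per kb also depends on the gene model. The RefSeq promoter window of Hoxc4 printed below (chr15:103034145-103034444) lies inside the 17.919 kb span used here. A shorter model would raise the Hoxc4 level per kb, so its place in the order and the HoxC share per kb hold for this span alone. Lower on the same scale were Hoxb6 at 4.63, Hoxa7 at 3.85, Hoxa9 at 3.79, Hoxb3 at 2.37, Hoxb9 at 2.15, Hoxa10 at 1.31, Hoxd8 at 1.146 and Hoxc11 at 0.35 CPM per kb. HoxB genes made up 63.8 ± 2.09% (SD, n = 12) of the summed level per kb in neurons, HoxA genes 15.7%, HoxC genes 12.9% and HoxD genes 7.57%. These shares rest on 10 HoxB, 6 HoxA, 4 HoxC and 7 HoxD members, with Hoxc5 among those left out, and without length the HoxB share of the same 27 members was 48.2%. In plain UMIs of all members, where Hoxc5 enters and gene length is not scaled out, HoxC held 42.5%, HoxB 37.5%, HoxA 14.4% and HoxD 5.66% of the Hox UMIs of neurons.

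The split by paralog number is given in plain UMIs, not scaled by length, so it counts the long Hoxc4 and Hoxc5 in full and ranks no group. Paralogs 3 to 6, 8 and 9 lack the 8 genes at 0 that lie inside other gene models, and Hoxc10 has only 12.7% of its span free of other genes. Paralog 4 held 29.0% of the neuronal Hox UMIs, paralog 5 held 23.7% and paralog 3 held 12.3%. Paralogs 6 to 9 held between 4.73% and 8.63% each, paralog 10 held 3.32% and paralog 11 held 2.27%. Genes at either end of the clusters were close to the limit: paralog 1 held 0.0673%, paralog 12 held 0.0298% and paralog 13 held 0.0272%. In all nuclei, Hoxc13 had 26 UMIs, Hoxc12 had 23, Hoxb1 had 9, Hoxd13 had 5, Hoxd12 had 3 and Hoxa13 had 1. The lumbar nuclei carried UMIs of most of the series from paralog 2 to paralog 11, and few of the groups that pattern the tail end.

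**Figure D1:**
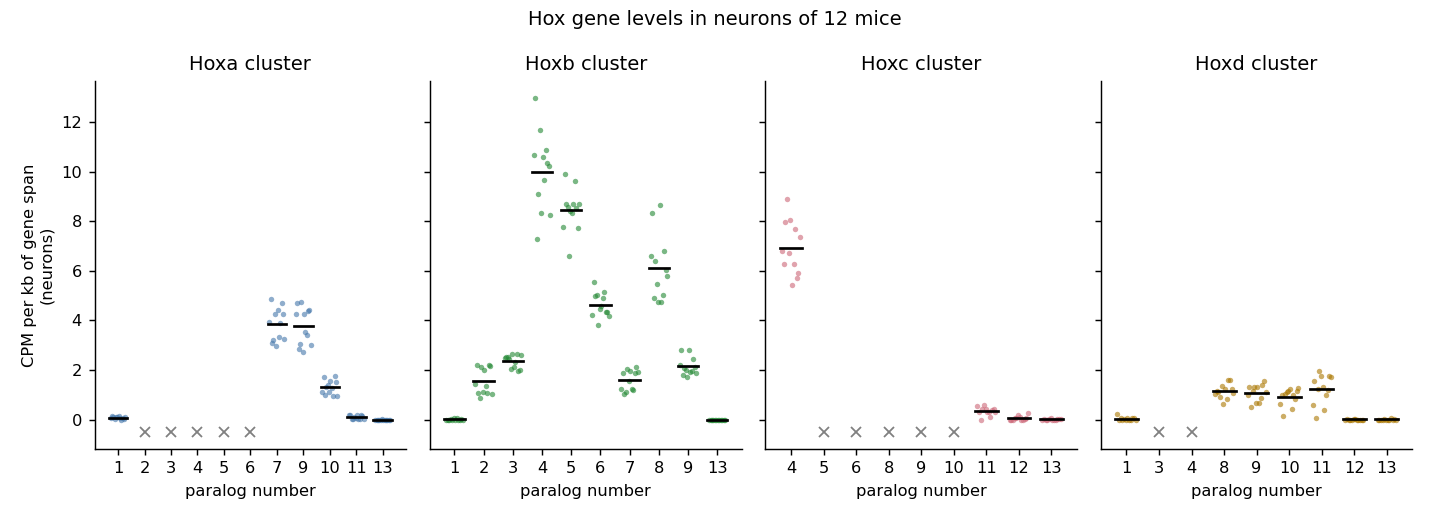
Level of Hox genes in neurons of the 12 mice, as CPM per kb of gene span on a linear axis, with 1 panel per cluster, points for mice and lines for their mean. Grey crosses mark genes with under 90% of their span free of other genes, for which no level per kb is shown, and Hoxb4, Hoxb5, Hoxc4 and Hoxb8 have the highest means, from 10.0 to 6.12.

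Hox genes were found in every cell type of the cord, neurons included. The summed level was 185 ± 58.4 CPM in oligodendrocytes, 232 ± 74.4 in motor neurons, 263 ± 39.3 in endothelial cells, 342 ± 80.7 in oligodendrocyte precursors (OPCs), 390 ± 49.5 in microglia and 479 ± 79.7 in astrocytes (SD, n = 12 mice each). It was 631 ± 327 in fibroblasts (10 mice), 828 ± 299 in ependymal cells (11 mice) and 1126 ± 255 in the Schwann and meningeal nuclei (12 mice). Neighbours in this order overlapped in their spread, so the order of single neighbours is not resolved.

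The labels were read against short marker lists before these levels were used. Neuron markers (Grin1, Rbfox3, Camk2a) summed to 784 CPM in neurons (736 to 863 over mice), but also to 485 in nuclei labelled microglia (386 to 644) and 450 in Schwann and meningeal nuclei (222 to 637). Microglia markers (Cx3cr1, Csf1r, Ptprc) summed to 74.6 in nuclei labelled microglia (38.8 to 122) and 13.9 in neurons, and those nuclei had a median of 46927 UMIs, against 12864.5 in neurons. In Schwann and meningeal nuclei the oligodendrocyte markers Mbp and Mog summed to 1658 (851 to 2835) and the Schwann markers Prx and Pmp22 to 106 (33.8 to 277), and the median nucleus had 1584 UMIs. The inhibitory neuron markers Slc32a1, Gad1, Gad2 and Slc6a5 summed to 675 there (298 to 968), against 165 in neurons. Mbp and Mog summed to 3430 in oligodendrocytes, but also to 1271 in nuclei labelled microglia (962 to 1506), 1014 in OPCs (724 to 2015), 889 in astrocytes (601 to 1509) and 168 in neurons. Neuron markers stood at 386 in OPCs (90.2 to 652) and at 56.6 to 169 in endothelial cells, ependymal cells, fibroblasts, astrocytes and oligodendrocytes. Pooled over mice, none of the neuron, inhibitory and oligodendrocyte markers was at 0 in any of these types. The part of RNA of other cell types in the Hox levels of those nuclei was not tested.

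Some single genes differed more between cell types than the sum did. Hoxb8 stood at 342 ± 92.9 CPM in Schwann and meningeal nuclei (101 to 487 over 12 mice), from 1081 UMIs, and at 56.8 ± 26.0 in astrocytes, 20.9 ± 4.49 in neurons and 18.7 ± 8.25 in oligodendrocytes (SD, n = 12 each). The lowest Schwann and meningeal value of Hoxb8 lay above the highest neuronal one, 29.5. HoxB genes gave 59.3% of the Hox UMIs of Schwann and meningeal nuclei. Hoxc4 went the other way in endothelial cells, at 6.85 ± 4.36 (0 to 14.5) from 32 UMIs, while Hoxb7 stood there at 23.6 ± 11.8 against 5.67 ± 1.45 in neurons. Hoxa7 reached 198 ± 119 in ependymal cells from 51 UMIs in 11 mice. In nuclei labelled microglia Hoxc4 stood at 81.6 ± 17.2, Hoxc5 at 74.7 ± 15.8 and Hoxb3 at 44.9 ± 10.2, the 3 genes with the most UMIs in neurons too.

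Per nucleus, Hox detection was compared after thinning every nucleus at random to 3000 UMIs, which left out the shallower ones. At that depth 78.5% of 8619 neurons (95% exact Clopper-Pearson interval 77.6 to 79.3%) held a Hox UMI, with 75.8 to 82.8% over the 12 mice and 181 nuclei left out. The share was 70.3% in astrocytes (67.8 to 72.8%), 63.1% in 222 nuclei labelled microglia (56.3 to 69.4%), 56.2% in endothelial cells (51.5 to 60.9%), 52.9% in OPCs, 40.3% in 67 motor neurons (28.5 to 53.0%) and 28.3% in oligodendrocytes (26.2 to 30.4%). It was 92.1% in 178 Schwann and meningeal nuclei (87.2 to 95.6%), but 853 of that type were too shallow to enter. Without thinning, 97.9% of neurons held a Hox UMI. No cell type of the table was fixed as one that should lack every Hox gene, so a share that free RNA alone would give is not known. A neuron thinned this way held UMIs of 1.46 different Hox genes on average and of 7 at most, and a Schwann or meningeal nucleus held 3.11.

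**Figure D2:**
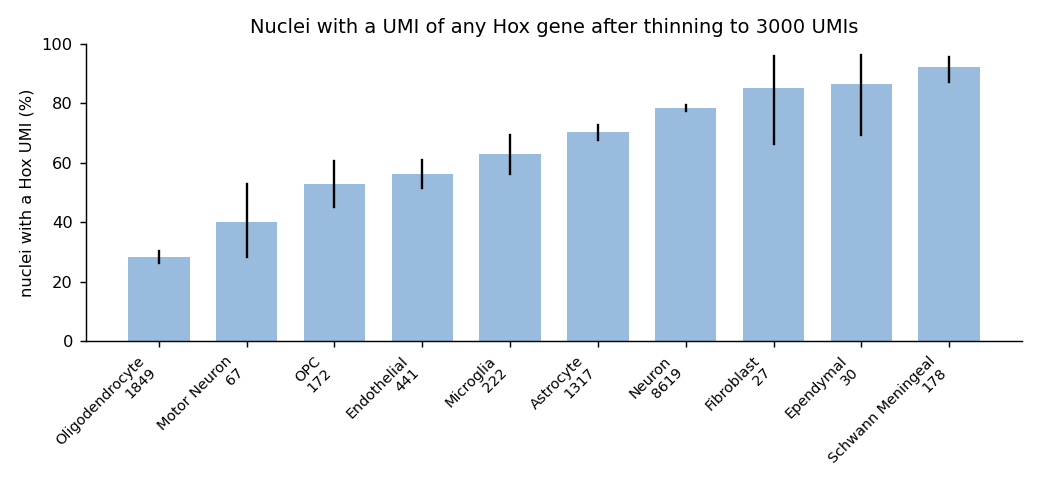
Percent of nuclei with at least 1 UMI of any Hox gene after thinning to 3000 UMIs, as bars by cell type with the number of nuclei under each name and lines for the 95% exact interval. Neurons stand at 78.5%, oligodendrocytes at 28.3% and Schwann and meningeal nuclei at 92.1%.

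Neurons were set against all other cell types apart from motor neurons within each mouse, as the log2 ratio of CPM with a prior count of 0.5, for genes with at least 100 UMIs, which 21 Hox genes had. These ratios are descriptions with no test. Of these, 6 were higher in neurons in 12 of 12 mice, where 15.9% of all 17426 genes were. They were Hoxd3 (log2 ratio 1.404 ± 0.39, SD, n = 12), Hoxc5 (1.27 ± 0.27), Hoxc4 (1.24 ± 0.12), Hoxd11 (1.22 ± 0.54), Hoxb3 (0.98 ± 0.20) and Hoxb4 (0.90 ± 0.30). Hoxc4 ran at 97.7 (lowest), 121 (median) and 159 (highest) CPM in neurons and at 40.8, 52.7 and 66.9 in the other nuclei, with no overlap. Only Hoxd8 was lower in neurons in all 12 mice, at −1.35 ± 0.47, where 34.2% of all genes were higher in the other nuclei in all mice. The median log2 ratio was −0.00 over the 21 Hox genes and −0.19 over all genes.

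The other nuclei were mixed in different proportions in each mouse, so fewer cells of a type and less RNA per cell cannot be told apart in their sum. Hoxb8 was lower in neurons in 11 of 12 mice (−0.96 ± 0.81), and it ran in the other nuclei at 17.4 (lowest), 35.2 (median) and 123 (highest) CPM. Schwann and meningeal nuclei gave 0.162% of the other UMIs in the mouse with the lowest Hoxb8 (male WT in pool B), and 17.1% and 16.2% in the mice with the highest values (123 in the female SOD1G93A mouse of pool C and 94.5 in the male SOD1G93A mouse of pool A). Without the Schwann and meningeal nuclei, Hoxb8 ran in the other nuclei at 15.3, 23.8 and 47.5, and 8 of 12 mice had less of it in neurons.

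Inside the neurons, Hox levels differed between sub-types labelled dorsal and ventral. The authors gave these labels by mapping the expression of the same nuclei to reference data. The grouping is therefore not independent of the genes counted, and the ratios below are descriptions with no test. Dorsal neurons were the sub-types DE and DI (dorsal excitatory and inhibitory), and ventral neurons were VE, VI, VC and VM (ventral excitatory, inhibitory, cholinergic without motor neurons, and mixed). The dorsal excitatory markers Lmx1b and Tlx3 summed to 122 CPM in DE (101 to 149 over mice) and 7.08 in VE (2.46 to 13.7), but reached 71.7 in VC. The ventral markers Esrrb, Sim1, En1 and Foxp2 summed to 77.2 in VE, 188 in VI, 11.1 in DE, 17.9 in DI and 17.7 in VC. VC therefore went against its position by these lists, and its nuclei made up 350 of the ventral ones. The summed Hox level was 577 ± 23.6 CPM in dorsal (547 to 624 over mice) and 492 ± 33.5 in ventral neurons (453 to 561; SD, n = 12), so the dorsal mean was higher by more than either SD while the ranges overlapped.

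The make-up of that sum differed by cluster. Of 21 Hox genes, 10 were higher in dorsal neurons in 12 of 12 mice, where 12.1% of all 15459 genes were, and 3 were higher in ventral neurons in 12 of 12, where 14.5% of all genes were. The 10 were all 8 tested HoxB genes, Hoxb2 to Hoxb9, with Hoxa7 and Hoxa9, and the 3 were Hoxc4, Hoxc5 and Hoxd11. The ventral count of 3 is near the share of all genes, so nothing is read from that count. The median log2 ratio of dorsal over ventral was 1.29 in HoxB, 0.51 in HoxA, −0.67 in HoxC and −0.66 in HoxD, beside −0.00 over all genes. The HoxC median rests on 4 genes. Of these, Hoxc10 had 38 dorsal and 69 ventral UMIs and Hoxc11 had 26 and 105, and both lacked UMIs in some mice on each side. In HoxD, Hoxd8 and Hoxd9 were lower in dorsal neurons in only 7 of 12 mice each. The HoxC and HoxD medians are therefore not read as shifts of whole clusters. HoxB held 49.3% of the Hox UMIs of dorsal neurons and 24.3% of those of ventral neurons, and HoxC held 30.6% and 55.4%. Most HoxC UMIs were of Hoxc4 and Hoxc5, with 5760 and 4555 of 10386 in dorsal and 7490 and 6805 of 14487 in ventral neurons. Shares of the same sum also move against each other, so the HoxC shares are not read as a shift of the whole cluster.

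Promoters are shown for Hoxb8 and Hoxb4, 2 of the genes higher in dorsal neurons, and for Hoxc4 and Hoxd11, 2 of those higher in ventral neurons. Each runs from 250 bases before to 50 bases after a RefSeq start (GRCm38.p6, plus strand), and capitals mark matches to TGATNNAT, the letters searched on both strands for joint binding of Pbx and Hox proteins. The Hoxb8 window is chr11:96281655-96281954, Hoxb4 chr11:96318017-96318316, Hoxc4 chr15:103034145-103034444 and Hoxd11, at the downstream of its 2 starts, chr2:74682073-74682372.
Hoxb8: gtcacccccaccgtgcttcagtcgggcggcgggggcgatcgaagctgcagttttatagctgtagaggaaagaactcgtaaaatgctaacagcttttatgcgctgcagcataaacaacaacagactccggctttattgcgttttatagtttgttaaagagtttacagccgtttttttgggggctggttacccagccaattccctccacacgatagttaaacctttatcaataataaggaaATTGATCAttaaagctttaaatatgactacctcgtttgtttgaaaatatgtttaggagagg
Hoxb4: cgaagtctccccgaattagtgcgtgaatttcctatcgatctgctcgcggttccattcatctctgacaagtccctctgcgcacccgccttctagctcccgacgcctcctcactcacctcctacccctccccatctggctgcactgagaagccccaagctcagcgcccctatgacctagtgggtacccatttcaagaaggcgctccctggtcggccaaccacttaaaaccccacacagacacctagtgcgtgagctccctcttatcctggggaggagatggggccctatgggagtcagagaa
Hoxc4: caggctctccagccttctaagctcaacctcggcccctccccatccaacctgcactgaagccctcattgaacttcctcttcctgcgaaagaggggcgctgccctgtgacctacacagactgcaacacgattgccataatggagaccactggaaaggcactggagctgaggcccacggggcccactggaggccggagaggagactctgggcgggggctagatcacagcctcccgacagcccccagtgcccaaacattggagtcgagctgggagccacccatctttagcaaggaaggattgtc
Hoxd11: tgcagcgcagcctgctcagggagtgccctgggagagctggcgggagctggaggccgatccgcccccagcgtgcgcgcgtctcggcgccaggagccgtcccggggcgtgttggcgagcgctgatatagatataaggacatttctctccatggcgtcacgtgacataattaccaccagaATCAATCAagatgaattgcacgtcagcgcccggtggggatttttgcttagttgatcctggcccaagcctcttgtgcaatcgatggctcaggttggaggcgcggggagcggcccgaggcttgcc
The windows of Hoxb8 and of Hoxd11 hold 1 match each, ATTGATCA and ATCAATCA, while those of Hoxb4 and Hoxc4 and the window at the upstream start of Hoxd11 (chr2:74679308-74679607, not printed) hold none. TGATNNAT was found in 8.85% of 32851 promoters of this length and in 4 of the 24 promoters that 22 Hox genes had in the table. The Meis letters TGACAG, also searched on both strands, were in 19.2% of all promoters, in 2 of the 24 Hox promoters and in none of the windows printed.

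Hoxb8, which in mice is known for sensory and dorsal horn circuits, ran at 24.3 (lowest), 31.7 (median) and 44.7 (highest) CPM in dorsal neurons and at 6.37, 7.89 and 12.96 in ventral neurons. Its log2 ratio was 1.87 ± 0.25 (SD, n = 12), 3.65-fold, and the ranges did not overlap. The neighbours Hoxb7 (2.01 ± 0.96) and Hoxb9 (1.79 ± 0.56) had ratios of the same size from fewer UMIs. Hoxb3 ran at 70.6, 77.4 and 90.3 in dorsal and at 26.9, 38.2 and 45.3 in ventral neurons, a ratio of 1.09 ± 0.17 without overlap. Hoxb6 (1.17 ± 0.21), Hoxb4 (1.04 ± 0.21) and Hoxb5 (1.00 ± 0.26) also had separate ranges, whereas those of Hoxb2 (1.42 ± 0.59; 3.36 to 11.5 against 1.01 to 5.97) overlapped. Along HoxB the ratios ran from 1.00 to 1.17 in paralogs 3 to 6 and from 1.79 to 2.01 in paralogs 7 to 9.

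On the HoxA cluster the ratio was 0.84 ± 0.23 for Hoxa7, 0.75 ± 0.16 for Hoxa9 and 0.10 ± 0.25 for Hoxa10, which was higher in dorsal neurons in 9 of 12 mice. Hoxa7 ran at 27.4, 36.8 and 44.6 in dorsal and 13.2, 21.2 and 26.6 in ventral neurons.

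Hoxc4, a paralog that in the embryo is active from the upper levels of the cord, ran at 79.0 (lowest), 104 (median) and 135 (highest) in dorsal and 112, 137 and 182 in ventral neurons, with a log2 ratio of −0.48 ± 0.12 (SD, n = 12). The ranges overlapped, but the ventral value was above the dorsal one within each mouse. Hoxc5 gave −0.69 ± 0.18, with 65.1 to 106 in dorsal and 108 to 156 in ventral neurons. Hoxd11 (chr2:74679557-74687016) was named here after its values were seen, since it had under 10 UMIs in 1 mouse. It ran at 0, 4.36 and 7.57 in dorsal and at 0.987, 15.3 and 20.9 in ventral neurons, and 2 mice were at 0 in dorsal neurons, so only the pooled levels of 4.99 and 14.0 are compared, a log2 ratio of −1.49. Hoxd3 (−0.66 ± 0.38) and Hoxd10 (−0.87 ± 0.73) were lower in dorsal neurons in 11 of 12 mice. Hoxd8 (−0.11 ± 0.74) and Hoxd9 (pooled −0.23, with 1 mouse at 0 in ventral neurons) were lower there in only 7 of 12 mice each.

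**Figure D3:**
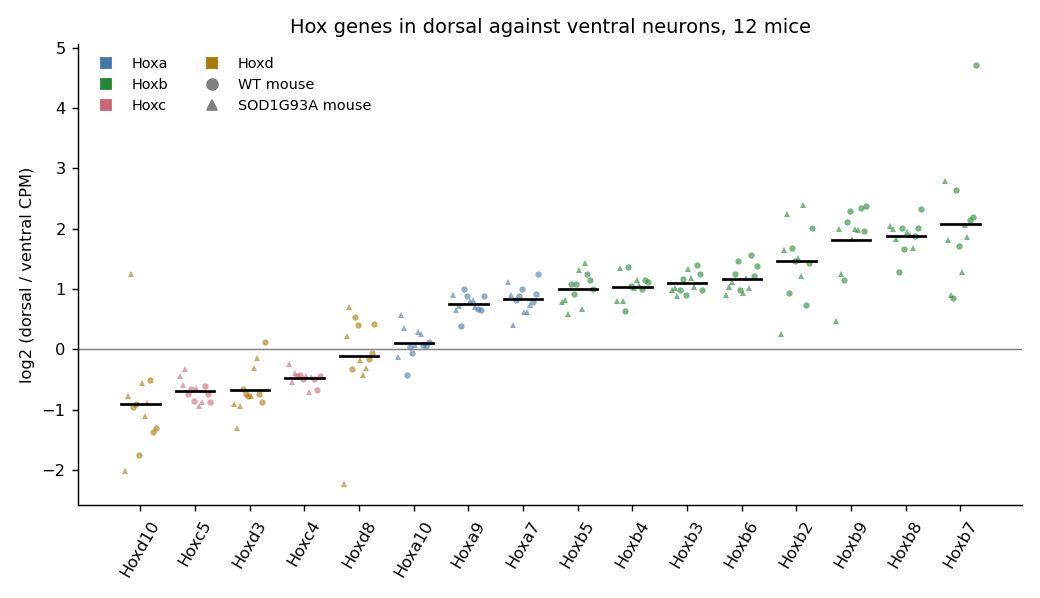
Log2 ratio of dorsal over ventral CPM in each mouse for the 16 Hox genes with UMIs on both sides in every mouse, coloured by cluster, with circles for WT mice, triangles for SOD1G93A mice and lines for the mean. All points of Hoxb2 to Hoxb9, Hoxa7 and Hoxa9 lie above 0 and all points of Hoxc4 and Hoxc5 below it.

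Single genes were also read by sub-type. Hoxb8 stood at 31.1 ± 6.11 in DE and 35.3 ± 9.58 in DI, at 25.4 ± 17.3 and 25.3 ± 10.8 in the mid excitatory and inhibitory sub-types ME and MI, and at 8.56 ± 2.43 in VE, 7.09 ± 3.56 in VI, 11.5 ± 6.18 in VC and 11.7 ± 11.1 in VM (CPM, SD, n = 12 each). The mid sub-types lay nearer to the dorsal ones for this gene. Hoxd11 stood at 4.70 ± 3.33 in DE and 3.20 ± 2.23 in DI, at 8.74 ± 9.47 in ME and 14.6 ± 10.5 in MI, and at 13.8 ± 7.55 in VE, 15.5 ± 8.73 in VI, 15.4 ± 16.2 in VC and 6.996 ± 11.01 in VM. The spreads of MI and VC spanned most of these means, and ME and VM, with 28 and 24 Hoxd11 UMIs, stood between the dorsal sub-types and the rest. Hoxc4 was lowest in DI at 80.8 ± 23.0 and highest in ME at 169 ± 50.3.

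Excitatory and inhibitory neurons (DE, ME and VE against DI, MI and VI) were compared in the same way. Slc17a6, the vesicular glutamate transporter, stood at 119 in DE against 11.1 in DI. Of 21 Hox genes, 2 were higher in excitatory neurons in 12 of 12 mice, where 4.57% of all 15443 genes were, namely Hoxc5 at a log2 ratio of 0.43 ± 0.11 and Hoxc4 at 0.31 ± 0.15 (SD, n = 12). By sub-type, Hoxc5 stood at 96.6 ± 14.0 in DE against 54.9 ± 9.56 in DI, but at 134 ± 17.1 in VE against 131 ± 19.2 in VI (CPM, SD, n = 12). Hoxc4 stood at 117 ± 19.0 in DE against 80.8 ± 23.0 in DI, but at 146 ± 22.1 in VE against 144 ± 30.8 in VI. For both genes the ventral pair differed by less than its spread. No Hox gene was higher in inhibitory neurons in all mice, where 3.77% of all genes were. Hoxb9 came nearest, at −0.43 ± 0.27 and higher in inhibitory neurons in 11 of 12 mice, and Hoxb8 was at −0.22 ± 0.27.

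Motor neurons were marked by Slit3, Prph and Chat at 1305 CPM (680 to 2422 over mice) against 92.3 in other neurons. These markers also reached 535 in VC (112 to 1107), which is part of the ventral set. Motor neurons were 67 nuclei, and the smallest mouse gave 27658 UMIs in them. Of 19 Hox genes, 6 were lower there than in ventral neurons in 12 of 12 mice, where 5.43% of all 13731 genes were, and none was higher, where 2.45% were. Nothing is read from this count, since Hoxb3, Hoxb4, Hoxb5 and Hoxd3 reached 100 UMIs through the ventral side alone, and a mouse at 0 in motor neurons (6 of 12 for Hoxd3, 3 for Hoxb5 and 1 for Hoxc4) counts as lower at this depth. Of the 6, Hoxc5 alone had UMIs in motor neurons of every mouse, with a log2 ratio of −1.35 ± 0.52 (SD, n = 12), beside a median of −0.70 over all genes. Pooled over mice, Hoxc4 stood at 72.8 in motor and 138 in ventral neurons, Hoxc5 at 53.3 and 125, Hoxb3 at 14.2 and 34.7, Hoxd3 at 1.78 and 11.2, and Hoxd9 at 3.30 and 2.96. Many of these motor neuron values rest on under 60 UMIs, for example 56 for Hoxb3.

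The study asked which genes differ between SOD1G93A and WT mice in each cell type. Hox genes were read from a limma voom fit with group and pool as terms over all genes of a type, with a false discovery rate (FDR) below 0.1 as the threshold and n = 6 mice per genotype. None of 78 tests of a Hox gene in a cell type passed it, where 0.568% of all 68984 tests did, and none of 96 tests in the neuron sub-types, where 0.0252% of all 75459 did. At an unadjusted p below 0.05 there were 9 of 78 and 9 of 96 Hox tests, where 7.18% and 4.54% of all tests were. The edgeR quasi-likelihood test also called 0 and 0 (4 and 8 at an unadjusted p below 0.05), and DESeq2 called 0 and 0 (4 and 3). Ependymal cells and fibroblasts had no Hox gene in the fit, with 11 and 10 mice, and motor neurons had 2.

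In neurons, where 20 Hox genes were fitted, 10 had a log2 fold change (SOD1G93A over WT) above 0 and 10 below, with a median of −0.00 beside 0.00 over all genes. The summed Hox level ran at 506 (lowest), 528 (median) and 577 (highest) CPM in WT and at 502, 526 and 573 in SOD1G93A mice. Hoxc4 ran at 102, 126 and 159 in WT and at 97.7, 117 and 143 in SOD1G93A neurons, and its log2 fold change was −0.08 ± 0.09 (SE). Hoxb8 ran at 16.2, 20.1 and 23.1 in WT and at 16.2, 19.8 and 29.5 in SOD1G93A (0.13 ± 0.12). Both genes, like the other 13 well-counted ones, overlapped between genotypes. The share of all genes that overlap was not taken, so nothing is read from this count.

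Among the rest of the well-counted genes, the largest differences were in Hoxb7, at 4.01, 6.77 and 7.45 in WT and 3.71, 4.35 and 6.98 in SOD1G93A (−0.29 ± 0.17), and in Hoxb6, at 34.9, 39.5 and 45.5 in WT and 38.3, 44.9 and 50.3 in SOD1G93A (0.17 ± 0.10). The FDR of both was 1.0 in limma. Hoxa7, Hoxa9, Hoxa10, Hoxb2 to Hoxb5, Hoxb9, Hoxc5, Hoxd3 and Hoxd8 had log2 fold changes between −0.08 and 0.15. Their standard errors were 0.09 to 0.20, and differences within such errors were not detectable.

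The lowest values relative to WT were in HoxD and HoxC genes of high paralog number, which were singled out after their values were seen. Hoxd11, a gene of lumbar patterning, stood in WT neurons at 9.29, 14.6 and 13.1 in the females and 9.05, 13.2 and 12.9 in the males (pools A, B and C). In SOD1G93A neurons it stood at 4.56, 11.5 and 0.55 in the females and 9.97, 2.78 and 7.54 in the males. The groups overlapped, and 4 of 6 SOD1G93A mice lay below the lowest WT mouse. The log2 fold change was −1.27 ± 0.42 (SE, n = 6 per genotype) with an unadjusted p of 0.0087 and an FDR of 0.92 in limma. Leaving out 1 mouse moved it from −1.84 to −0.70, the latter without the female SOD1G93A mouse of pool C, and it was −0.74 without the male SOD1G93A mouse of pool B. The mean was lower in SOD1G93A within each pool, at 7.26 against 9.17 in A, 7.15 against 13.9 in B and 4.05 against 13.004 in C. Dorsal nuclei made up 63.1% and 65.3% of neuron nuclei in the SOD1G93A females of pools A and B. They made up 53.6% and 51.3% in the WT females of those pools. In the other pairs of the same pool and sex the SOD1G93A percent was the lower one. The part of this mix in the neuronal Hoxd11 levels was not tested.

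Hoxd11 was fitted in 6 sub-types, and its log2 fold change was below 0 in 6 of 6, from −2.09 to −0.69, with FDRs of 0.27 to 1.0. These sub-types are parts of the same neurons in which the gene was singled out, so their shared direction is no separate result. The lowest FDR was in DE, at a log2 fold change of −2.03 ± 0.51, which was −1.12 in edgeR and ran from −2.59 to −1.27 when 1 mouse was left out, the latter without the male SOD1G93A mouse of pool B. In the other nuclei Hoxd11 ran at 2.93, 4.20 and 6.87 in WT and at 0.511, 2.62 and 5.18 in SOD1G93A mice. Its neighbour Hoxd10 ran in neurons at 2.60, 3.60 and 4.09 in WT and 0.412, 2.61 and 3.94 in SOD1G93A (−0.73 ± 0.33, FDR 1.0), and Hoxd9 at 1.66, 3.07 and 3.84 and at 1.24, 2.34 and 3.29 (−0.32 ± 0.20). Hoxc11 ran at 1.05, 1.37 and 1.99 in WT and 0, 0.974 and 1.82 in SOD1G93A (−1.02 ± 0.40, FDR 1.0). The female SOD1G93A mouse of pool C was the lowest for Hoxd11, Hoxd10 and Hoxc11, and its Hoxc4 level of 143 was the highest of the SOD1G93A mice. Without it the log2 fold change was −0.28 for Hoxd10 and −0.51 for Hoxc11, and without the male SOD1G93A mouse of pool B it was −0.39 for Hoxd10.

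**Figure D4:**
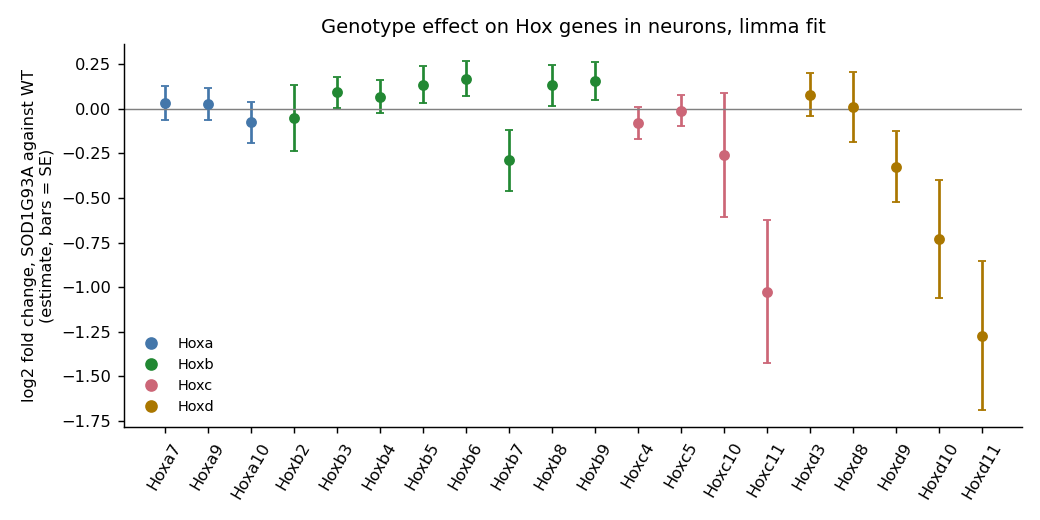
Log2 fold change of SOD1G93A over WT in neurons for the 20 fitted Hox genes from limma, with bars for the standard error and colours for clusters. Most estimates lie near 0, and Hoxd11, Hoxc11 and Hoxd10 lie lowest at −1.27, −1.02 and −0.73, with an FDR of 0.92 for Hoxd11 and 1.0 for the other two.

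The share of Hox UMIs from paralogs 9 to 13 was taken as a plain summary of the caudal end of the clusters. In neurons it was 13.4 ± 2.77% (SD, n = 12), with 14.1 ± 2.64% (11.3 to 16.8%) in WT and 12.6 ± 2.92% (8.38 to 16.0%) in SOD1G93A mice. It lay at 11.3 to 16.1% in pool A, 11.7 to 16.8% in pool B and 8.38 to 12.2% in pool C. The lowest mouse was in pool C. In the other nuclei of the same mice it was 20.5 ± 3.14%, with 18.9 ± 2.66% in WT and 22.1 ± 2.90% in SOD1G93A. With paralogs 10 to 13 alone, the share was 5.95 ± 0.86% in WT and 4.26 ± 1.53% in SOD1G93A neurons, and 6.68 ± 0.76% and 6.73 ± 1.82% in the other nuclei, so the genotype means of the other nuclei were apart only with paralog 9 included. Each pool held 1 mouse of each sex and genotype, and among these 6 pairs of the same pool and sex the neuronal share of paralogs 10 to 13 was lower in the SOD1G93A mouse in 6, from 6.08% against 6.19% (males of pool A) to 2.06% against 5.68% (females of pool C). With paralog 9 included it was lower in 5 of 6 pairs, and in the other nuclei the counts were 3 and 2 of 6. These pairs were not tested. Hoxd11, Hoxd10 and Hoxc11, singled out above for their low values in the same neurons, are part of both shares. The counts of pairs are therefore no separate result, and a share without these genes was not taken. Schwann and meningeal nuclei gave 0.162 to 3.98% of the other UMIs in WT and 3.47 to 17.1% in SOD1G93A mice, and their part in the share of the other nuclei was not tested. The mix of dorsal and ventral neurons also differed between mice, and its part in the neuronal shares was not tested. How far the dissected stretch of cord differed between mice was not given in the labels, and its part in these values was not tested.

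**Figure D5:**
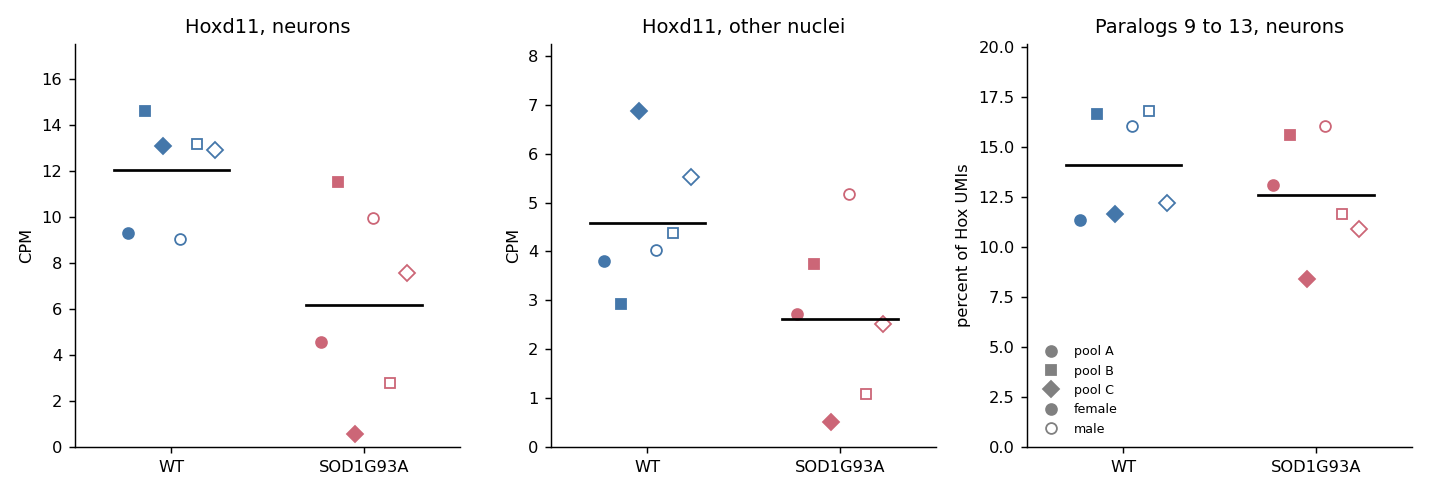
Hoxd11 in neurons and in the other nuclei, as CPM, and the percent of neuronal Hox UMIs from paralogs 9 to 13, in each mouse by genotype, with marker shapes for pools, filled markers for females, open ones for males and lines for the mean. Neuronal Hoxd11 lies at 9.05 to 14.6 in WT and 0.55 to 11.5 in SOD1G93A mice, and the share at 8.38 to 16.8% over all mice.

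By cell type, the nearest Hox results to the threshold were HoxB genes in nuclei labelled microglia. Neuron markers summed to 485 CPM in these nuclei, and the part of RNA of other cell types in the values below was not tested. Hoxb6 ran there at 19.2, 28.9 and 40.9 in WT and 30.2, 42.5 and 59.5 in SOD1G93A mice, with a log2 fold change of 0.62 ± 0.18 (SE) and an FDR of 0.279, and Hoxb5 at 10.9, 14.9 and 21.2 and at 17.0, 20.5 and 33.6 (0.69 ± 0.22, FDR 0.317). The groups overlapped for both. Hoxb8 (0.74, FDR 0.412) and Hoxb9 (0.78, FDR 0.576) lay in the same direction. When 1 mouse was left out, the log2 fold change ran from 0.39 to 0.76 for Hoxb6 and from 0.50 to 0.84 for Hoxb5. It ran from 0.25 to 0.92 for Hoxb8 and from 0.76 to 1.00 for Hoxb9. The FDRs of these fits reached 0.967 for Hoxb6 and 0.998 for Hoxb8. Outside the nuclei labelled microglia the lowest Hox FDR by cell type was 0.421, for Hoxa10 in astrocytes (0.47 ± 0.25).

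No Hox gene passed the test between females and males, with 0 of 78 tests in cell types called where 0.159% of all were, and 2 at an unadjusted p below 0.05 where 5.56% of all were (1 in edgeR and 1 in DESeq2, neither calling any). Both were Hoxc4, which was 0.23 ± 0.09 higher in female neurons on the log2 scale (FDR 1.0 in limma) and 0.72 ± 0.29 higher in female motor neurons (FDR 0.867). In the sub-types 0 of 96 sex tests were called, where 0.0928% of all were, and 10 had an unadjusted p below 0.05, where 4.73% of all had (10 in edgeR and 4 in DESeq2, neither calling any). Of these 10, 5 were in DI and 3 in DE. The test of whether the genotype difference itself differed between sexes called 0 of 78 in cell types, where 0.0058% of all tests were called, and limma, edgeR and DESeq2 each had 0 Hox tests at an unadjusted p below 0.05, where 3.11% of all were in limma. In the sub-types it called 0 of 96, where 0.0782% of all were called, with 5 at an unadjusted p below 0.05, where 4.08% of all were (2 in edgeR and 0 in DESeq2, neither calling any).

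The partners of Hox proteins were read from fixed lists. Of the TALE cofactors 8 were read, all of them listed, and in neurons Pbx3 stood at 288 ± 20.7, Meis2 at 186 ± 22.5, Meis1 at 183 ± 18.5 and Pknox2 at 164 ± 19.3 CPM (SD, n = 12). None of their 49 tests by genotype in cell types or 62 in sub-types was called in limma, with 6 and 8 at an unadjusted p under 0.05, where 7.18% and 4.54% of all tests were. Pknox2 (196 to 256 against 70.7 to 117) and Pknox1 (47.6 to 66.1 against 28.7 to 45.5) were higher in dorsal neurons without overlap. Meis2 (228 to 369 against 57.1 to 133) and Pbx3 (281 to 445 against 165 to 245) were higher in ventral neurons without overlap. The ranges of Meis1, Meis3, Pbx2 and Pbx4 overlapped. Dorsal and ventral labels came from expression of the same nuclei, and the share of all genes without overlap was not taken. Nothing is therefore read from the number of cofactors that did not overlap. Of 16 transcripts of the clusters that encode no Hox protein, 7 were listed, with Hotairm1 at 6.95 ± 1.35, Hotair at 0.65 ± 0.34 and Hottip at 0 UMIs in neurons, and 0 of 18 tests in cell types and 0 of 27 in sub-types were called. Among 19 chromatin regulators of the clusters, 1 of 104 tests in cell types was called and 0 of 112 in sub-types, where 0.568% and 0.0252% of all were. It was Kdm6b, a demethylase of histone H3 lysine 27, which rose in SOD1G93A motor neurons by a log2 fold change of 1.08 ± 0.31 (FDR 0.093 in limma), a type where 3.07% of all genes were called, and which did not pass in edgeR (FDR 0.185) or DESeq2 (0.268).

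Transcription factors of the forebrain and midbrain served as the other end of the axis. Pooled over mice, the 7 anterior factors summed to 0.335 CPM in neurons, where the 39 Hox genes summed to 528. These sums are not scaled by gene length or by the number of genes. The caudal genes Cdx1, Cdx2 and Cdx4, which switch on Hox clusters in the embryo, summed to 0.0273 CPM in neurons, and Cdx2 was at 0.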

How the data were processed

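The deposited counts are UMIs per gene and nucleus, made by the authors with bcl2fastq 2.20.0.422, Cell Ranger 3.1 and STAR 2.5.1b on a pre-mRNA reference of mm10, and not normalized. The authors assigned nuclei to mice by hashtag with Seurat 4.0.3, removed nuclei of low quality and those with several or no hashtags, removed mitochondrial genes, and named types and sub-types. Doublets within 1 mouse were not marked. The deposited integrated values were not used.

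UMIs were summed per mouse over each type. Genotype, sex and their interaction were fitted in R 4.3.3 with limma 3.58.1 (voom, filterByExpr with a minimum count of 10, TMMwsp factors, 4 sex and genotype groups plus pool, robust empirical Bayes), with Benjamini-Hochberg FDRs over all genes of a type, and with edgeR 4.0.16 and DESeq2 1.42.0 as alternatives. The script was tested on simulated data. Pools are those the labels name, each with 1 mouse per group, and pool is the replicate block. Ratios between nuclei of the same mouse carry no test, and were taken for genes with at least 100 UMIs over both sets with a prior count of 0.5. Values per mouse are given for members with at least 10 UMIs in neurons of every mouse, and for Hoxd9, Hoxd10, Hoxd11 and Hoxc11, singled out after their values were seen. Hox members, markers and lists were chosen with earlier results of these data known. Some genes of the marker and cofactor lists are not reported here, and the lists' sums and counts leave them out. Positions are from GENCODE vM21 and promoters from RefSeq, both of GRCm38.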

Additional observations from a re-analysis of the deposited data

Results flagged for a closer look

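For Hox levels and shares by genotype, 46 groups of 6 mice were checked for a mouse standing apart from the rest, and 1 was found, where chance alone gives about 1 in 20. It was Hoxc11 in neurons, at 1.99 CPM (counts per 1000000 UMIs) in the female WT mouse of pool B against 1.05 to 1.395 in the other WT mice. Hoxc11 lies outside the well-counted genes and was singled out after its values were seen.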

How the results depend on the processing

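No Hox gene passed the genotype test under edgeR, DESeq2, TMM factors, a minimum count of 30 or without the robust option. The minimum count of 30 left 31 Hox tests in cell types, against 78 in the main fit. Without the replicate block the counts of Hox calls also stayed at 0, and the block changed no Hox call. With no filter on low counts 2 of 239 Hox tests passed in cell types (Hoxd9 and Hoxb9 in motor neurons), where 688 of all 196082 tests did. In sub-types 1 passed (Hoxd10 in VC). These 3 genes had 13, 10 and 32 UMIs in those nuclei, found in 6, 4 and 8 of 12 mice, so nothing is read from these calls. Leaving out 1 mouse gave 0 to 1 in cell types and 0 to 1 in sub-types: Hoxb8 in astrocytes without female SOD1G93A replicate A, Hoxb6 in nuclei labelled microglia without female WT replicate A (FDR 0.073), and Hoxd11 in DE without female SOD1G93A replicate B (−2.44, FDR 0.0625). The cause was not tested. Over all genes, 392 genotype tests in cell types passed in limma, 243 in edgeR, 155 without the block and 688 with no filter, and in sub-types 19 in limma, 58 in DESeq2, 7 without the block and 91 with no filter. Kdm6b in motor neurons did not pass with no filter (FDR 0.255), without the block (0.118) or in 10 of the 12 fits that left out a mouse (up to 0.277).

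Among the ratios within mice, 10 Hox genes were higher in dorsal neurons in every setting, 6 to 8 were higher in neurons than in other nuclei, 2 to 3 higher in excitatory neurons and 0 higher in motor neurons. In WT mice alone, where a direction needs 6 mice, 2 Hox genes were lower in neurons than in other nuclei, 5 lower in dorsal neurons, 2 lower in excitatory neurons and 13 lower in motor neurons (a count from which nothing is read at that depth), and without microglia, an alternative chosen after seeing the data, 2 were lower in neurons. Without female SOD1G93A replicate C, also chosen after seeing the data like the ratio of Hoxb8 without Schwann and meningeal nuclei, 4 were lower in dorsal neurons. The shares of all genes under these other settings are not given, and a direction is met more easily in fewer mice. Nothing is therefore read from the way these counts differ from the main ones. The HoxB share over the 27 members free of overlaps was 48.2% without length. Neurons with a Hox UMI were 42.6% after thinning to 1000 UMIs and 97.9% without thinning. Paralogs 10 to 13 alone gave 5.11% of neuronal Hox UMIs.

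Motor neurons, OPCs, ependymal cells and fibroblasts were too few for most Hox genes to enter a fit. The 8 Hox genes at 0 that lie inside other gene models were not measured on their own, and the p-values rest on 6 mice per genotype.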
